A study of Mus musculus with 11 samples.

Results

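Apoe and 9 other genes of lipid handling in macrophages (Gpnmb, Trem2, Abca1, Abcg1, Lgals3, Ctsd, Cd9, Spp1 and Nr1h3) were followed through whole mouse hearts. They are 10 of the 54532 genes in the deposited count table, and all 10 passed the filter on low counts, which 14862 genes passed. The set was chosen by measured values of these libraries, because Apoe was lower and Gpnmb higher in hearts given METTL3. The values of METTL3 against HFD+STZ that chose it are therefore given as a description, without a test, and no test is given for Apoe or Gpnmb in any comparison.

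The hearts came from C57BL/6 mice in 3 groups: chow (n = 3), HFD+STZ (n = 4) and HFD+STZ+AAV METTL3 (n = 4, called METTL3 here). The labels give 26 weeks as the time for every library and do not spell the abbreviations out. HFD usually stands for a diet rich in fat and STZ for streptozotocin, which kills the beta cells that make insulin, and METTL3 is the catalytic subunit of the enzyme complex that places N6-methyladenosine on RNA. All METTL3 hearts also carry the HFD+STZ label. The sources used here do not say whether the HFD+STZ hearts received a control virus, or which promoter and capsid the AAV carried. The labels do not tie the replicates to separate animals, so every p-value measures only the spread among these libraries, part of which may be technical.

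Apolipoprotein E is the lipid carrier that macrophages secrete in quantity, and it takes up cholesterol that the transporters ABCA1 and ABCG1 move out of the cell. The oxysterol receptor LXR alpha, encoded by Nr1h3, induces Apoe and both transporters when cell cholesterol is high. TREM2 is a lipid-sensing receptor that signals through the adaptor TYROBP, and macrophages loaded with lipid or debris switch on a programme that includes Trem2, Gpnmb, Spp1, Lgals3, Cd9 and Ctsd. Resident macrophages of the heart clear dying cells and material that cardiomyocytes shed, and they are a small share of the cells in whole-heart RNA.

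Apoe, Trem2 and Abca1, whose METTL3 libraries did not overlap those of chow, and Gpnmb, which had its highest mean in METTL3, are shown with the 250 bases upstream of a RefSeq start (GRCm38.p6), so that the letters before each gene stand beside its values. RefSeq entries matched 9 of the 10 genes; Abcg1 had none. Capitals mark CACGTG, the core letters bound by the lysosomal regulators TFEB and TFE3, and GAGGAA or its reverse complement, the core letters bound by the myeloid factor PU.1. The windows are Apoe chr7:19699189-19699438 (minus strand), Trem2 chr17:48346151-48346400 (plus strand), Abca1 chr4:53159896-53160145 (minus strand) and Gpnmb chr6:49036268-49036517 (plus strand).
Apoe: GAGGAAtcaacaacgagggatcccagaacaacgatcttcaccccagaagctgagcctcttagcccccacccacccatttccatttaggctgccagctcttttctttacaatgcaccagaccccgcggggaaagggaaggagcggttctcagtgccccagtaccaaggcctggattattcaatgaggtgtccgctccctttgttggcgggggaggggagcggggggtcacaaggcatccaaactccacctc
Trem2: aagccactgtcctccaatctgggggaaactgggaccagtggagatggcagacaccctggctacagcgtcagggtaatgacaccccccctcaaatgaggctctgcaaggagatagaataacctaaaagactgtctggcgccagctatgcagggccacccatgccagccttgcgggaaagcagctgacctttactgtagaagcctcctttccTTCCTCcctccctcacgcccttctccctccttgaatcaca
Abca1: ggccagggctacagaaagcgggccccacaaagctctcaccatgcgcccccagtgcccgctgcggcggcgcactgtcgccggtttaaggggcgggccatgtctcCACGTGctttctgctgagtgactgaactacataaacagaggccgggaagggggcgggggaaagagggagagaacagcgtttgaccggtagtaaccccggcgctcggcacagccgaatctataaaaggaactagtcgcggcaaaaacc
Gpnmb: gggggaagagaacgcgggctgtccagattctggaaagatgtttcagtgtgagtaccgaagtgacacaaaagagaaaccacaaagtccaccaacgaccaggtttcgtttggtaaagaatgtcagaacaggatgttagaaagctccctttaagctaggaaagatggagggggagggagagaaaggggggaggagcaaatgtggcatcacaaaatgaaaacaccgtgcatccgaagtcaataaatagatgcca

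GAGGAA began 250 bases before the Apoe start shown. RefSeq gives 3 starts for Apoe, and another of them had GAGGAA 132 bases before it. The reverse complement began 40 bases before the Trem2 start. CACGTG lay 147 bases before the Abca1 start. The Gpnmb window held neither. Over both strands, 23.25% of the 32851 upstream windows in the RefSeq table held GAGGAA and 6.02% held CACGTG. The nuclear receptor half-site AGGTCA, present in 14.02% of windows, lay on the opposite strand of the Trem2 and Ctsd windows. Of the genes not printed, Ctsd held CACGTG 245 and 98 bases before its start and Spp1 held GAGGAA 113 bases before 1 of its 2 starts. The letter pattern searched for the LXR element DR4, in 0.195% of windows, matched none of the 13 windows of the members. Forms of DR4 with other letters were not searched for. The absence of an LXR element can therefore not be read from this for any member, Abca1 included. These are letter matches, not sites of binding.

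The libraries held 13900531 to 16952639 counts each, of which 9.28% to 45.5% were from mitochondrial genes. Mitochondrial genes took 28.6% to 32.5% of counts in HFD+STZ and 37.7% to 45.5% in METTL3. The library chow 3 stood apart, with 9.28% mitochondrial counts and 15734 genes detected against 17317 to 20769 in the others, so results that rest on it are given with and without it. Mettl3 itself lay at 3.04 to 7.88 CPM in chow, 4.39 to 7.82 CPM in HFD+STZ and 6.52 to 10.8 CPM in METTL3. These ranges overlapped, so the direction of each METTL3 comparison rests on the labels. CPM are counts scaled to library size with TMM factors.

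Apoe (ENSMUSG00000002985, mm10 chr7:19696109-19699188, minus strand) rested on 1322 or more counts in every library. Its level was 316, 459 and 497 CPM in chow, 287, 248, 397 and 256 CPM in HFD+STZ, and 124, 142, 153 and 118 CPM in METTL3. All 4 METTL3 libraries lay below every library of the other groups, while chow and HFD+STZ overlapped. The means were 424 ± 95.4 CPM (SD, n = 3), 297 ± 68.6 CPM (SD, n = 4) and 135 ± 16.1 CPM (SD, n = 4). On the log2 scale METTL3 lay 1.14 (SE 0.21) below HFD+STZ and 1.65 (SE 0.22) below chow, a 3.15-fold lower level, and HFD+STZ lay 0.51 (SE 0.22) below chow. In bulk RNA, fewer cells that make a transcript and less of it per cell cannot be told apart.

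**Figure D1:**
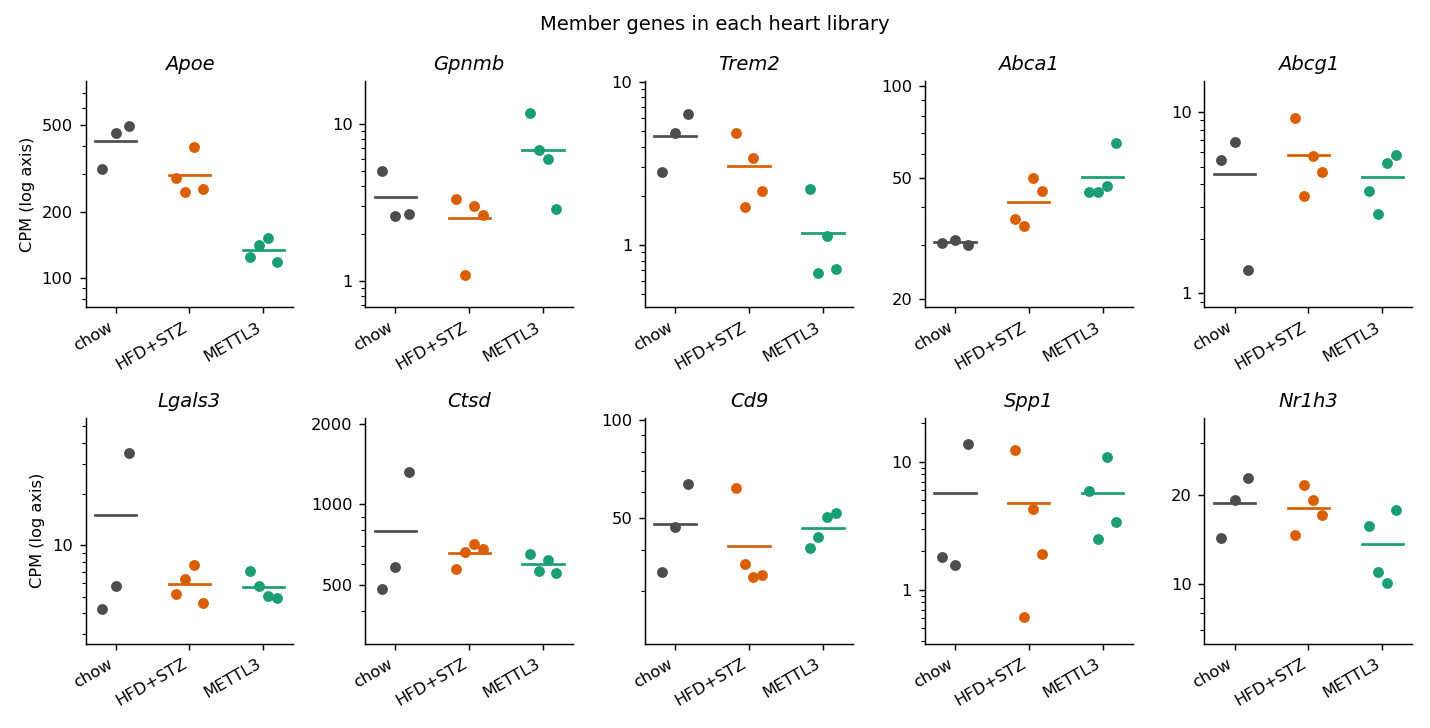
TMM-scaled CPM (log axis) of each of the 10 genes in the 3 chow, 4 HFD+STZ and 4 METTL3 heart libraries; points are libraries and lines are group means. The 4 METTL3 libraries lie below all others for Apoe (118 to 153 CPM), the METTL3 libraries of Gpnmb reach 11.7 CPM with 1 at 2.87 CPM, and chow 3 is the single high point of Lgals3 (35.0 CPM) and Ctsd (1318 CPM).

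Apoe was also compared within ranges of sample codes and under other corrections. The sample codes in the labels fall in 2 ranges, 25 to 33 and 78 to 98, and all chow libraries carry codes of the higher range. Among codes 25 to 33 Apoe was at 124 to 153 CPM in 3 METTL3 libraries and 248 to 397 CPM in 3 HFD+STZ libraries, and the 1 METTL3 library of the higher range was at 118 CPM against 287 CPM. With mitochondrial genes left out, Apoe in METTL3 lay 1.14 below HFD+STZ on the log2 scale, as with them. Apoe transcripts are 60.0% G and C, more than in 96.3% of tested genes. With the fit corrected for length and GC content the log2 differences were -0.86 from HFD+STZ and -1.31 from chow.

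Gpnmb (ENSMUSG00000029816, chr6:49036546-49070929, plus strand) encodes a membrane glycoprotein of lysosome-rich, lipid-laden macrophages. Its level was 5.03, 2.58 and 2.65 CPM in chow, 3.29, 1.09, 2.997 and 2.62 CPM in HFD+STZ, and 11.7, 6.77, 5.97 and 2.87 CPM in METTL3. METTL3 1, 2 and 3 lay above all chow and HFD+STZ libraries, while METTL3 4 lay inside both ranges. The fitted log2 difference was 1.45 (SE 0.45) between METTL3 and HFD+STZ, 1.00 (SE 0.48) between METTL3 and chow, and -0.45 (SE 0.48) between HFD+STZ and chow. METTL3 4 is the METTL3 library with a code of the higher range, in which HFD+STZ 1 was at 3.29 CPM. Among codes 25 to 33, Gpnmb was at 5.97 to 11.7 CPM in METTL3 and 1.09 to 2.997 CPM in HFD+STZ, without overlap.

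Gpnmb rested on few counts, 18 in the lowest HFD+STZ library and 32 in the lowest METTL3 library. The gene is also known from melanocytes and Schwann cells, so their markers were read beside it. Of 7 melanocyte markers Slc45a2 was at 0 in every library. Tyr was at 0 in all chow and HFD+STZ libraries and reached 0.378 CPM (5 counts) in METTL3. Dct had means of 3.68 CPM in chow, 2.98 CPM in HFD+STZ and 2.56 CPM in METTL3. Kit lay at 9.87 mean CPM in chow and 3.70 in METTL3. Pmel, Tyrp1 and Mlana had their highest means in METTL3, at 0.700, 0.283 and 0.207 CPM. Their means were 0.281, 0.0877 and 0.0352 CPM in chow and 0.484, 0.0850 and 0.159 CPM in HFD+STZ. The 7 Schwann cell markers summed to 26.9 to 38.7 CPM in METTL3, above 14.1 to 22.8 CPM in HFD+STZ. Among them Cdh19 rose 1.29 (SE 0.26) in METTL3 over chow (edgeR adjusted p = 0.0279, lost without chow 2 or any 1 of the 4 METTL3 libraries, highest 0.0851). The part of Schwann cell or melanocyte RNA in the Gpnmb difference was not tested.

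The ratio of Apoe to Gpnmb CPM was 62.9 to 188 in chow, 87.3 to 227 in HFD+STZ and 10.7 to 41.3 in METTL3. Both genes chose the set, so this separation is a description of the rule. Gpnmb and Trem2 both belong to the lipid-associated programme, and per deposited gene length the ratio of Gpnmb to Trem2 was 0.319 to 1.36 in chow, 0.488 to 0.933 in HFD+STZ and 3.04 to 7.69 in METTL3. That ratio did not overlap between METTL3 and the other groups. Gpnmb was chosen for being high in METTL3, so nothing is read from this separation either.

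Trem2 (ENSMUSG00000023992, chr17:48346401-48354147, plus strand) lay at 2.80, 4.84 and 6.30 CPM in chow, 4.86, 1.70, 3.42 and 2.13 CPM in HFD+STZ, and 2.19, 0.669, 1.13 and 0.717 CPM in METTL3. METTL3 was wholly below chow and overlapped HFD+STZ through METTL3 1. Its lowest METTL3 library held 8 counts. The log2 difference between METTL3 and chow was -1.96 (SE 0.51), just short of the threshold of 0.05 (edgeR adjusted p = 0.0547). DESeq2 called it (adjusted p = 0.00526), as did edgeR with no filter (0.0233) and without chow 1 (0.0398), and over all alternatives the adjusted p reached 0.324. HFD+STZ lay 0.62 (SE 0.48) below chow on the log2 scale (edgeR adjusted p = 0.599), and METTL3 lay 1.35 (SE 0.48) below HFD+STZ.

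The partners of TREM2 gave 2 calls. Of 11 tested genes of TREM2 signalling, Tyrobp and Ms4a7 fell in METTL3 against chow and none rose. Tyrobp, the adaptor, fell from 10.4 to 3.10 mean CPM, by 1.74 on the log2 scale (SE 0.37, edgeR adjusted p = 0.0320). Ms4a7, a macrophage membrane protein, fell from 5.80 to 1.11 mean CPM, by 2.37 (SE 0.52, edgeR adjusted p = 0.0347). The median of the 11 was -0.25 against -0.01 over all tested genes. Both calls were lost without chow 2 or any 1 of the 4 METTL3 libraries, and that of Ms4a7 also without chow 3, with adjusted p up to 0.0918 for Tyrobp and 0.0952 for Ms4a7. The kinase Syk, at 20.4 mean CPM in METTL3 and 27.9 in HFD+STZ, had an adjusted p of 0.613 in that comparison.

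Against chow, 475 of 14862 genes (3.2%) passed the adjusted threshold in METTL3 and 25 (0.168%) in HFD+STZ. Of the 8 members that could be tested, 0 passed in either comparison by edgeR. At an unadjusted p of 0.05, 3 of the 8 passed in METTL3 and 2 in HFD+STZ, against 21.7% and 12.1% of all genes. Abca1 and Lgals3 passed in both and Trem2 in METTL3. The Lgals3 difference rested on chow 3 and changed sign without that library in both comparisons. DESeq2 called 2 of the 8 in METTL3 against chow, Trem2 and Abca1, and 0 in HFD+STZ against chow. In METTL3 against HFD+STZ no gene of the table passed (0% by edgeR; 1346 genes, 9.06%, at an unadjusted p of 0.05; 139 by DESeq2). The groups of Apoe did not overlap there, against 9.57% of all genes, from which nothing is read since the rule used that contrast. The median log2 difference of the 10 members was -0.26 for HFD+STZ against chow, -0.10 for METTL3 against HFD+STZ and -0.23 for METTL3 against chow, beside -0.02, -0.00 and -0.01 over all genes. These comparisons share libraries. All gene lists together held 22 genes called in METTL3 against chow. With the sample code range as a covariate all 22 calls were lost, and fitted on these 2 groups alone 18 of the 21 with a value were lost.

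**Figure D2:**
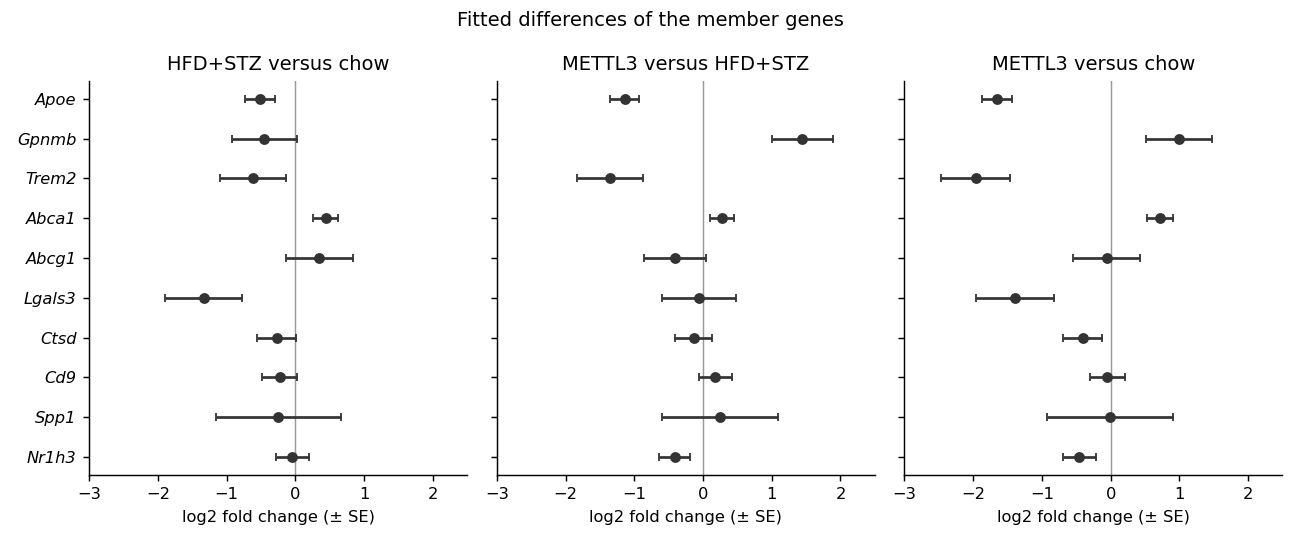
Fitted log2 fold changes (edgeR, bars ± SE) of the 10 genes for HFD+STZ against chow, METTL3 against HFD+STZ and METTL3 against chow, which share libraries. Apoe and Trem2 lie below 0 in all 3 panels and Abca1 above 0 in all 3; Gpnmb lies above 0 in the METTL3 panels (1.45 and 1.00).

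The cholesterol exporter Abca1, unlike Apoe, lay lowest in chow. Abca1 (ENSMUSG00000015243, chr4:53030787-53159895, minus strand), which loads cholesterol onto apolipoproteins, lay at 30.6, 31.2 and 30.2 CPM in chow, 36.6, 34.7, 50.04 and 45.2 CPM in HFD+STZ, and 45.0, 44.8, 47.1 and 65.0 CPM in METTL3. Chow was lowest, with no overlap with either treated group, and the treated groups overlapped. It was the 1 member without overlap in HFD+STZ against chow, against 10.4% of all genes. Of the 8 members without Apoe and Gpnmb, 1 lay wholly above chow in METTL3 (Abca1) and 1 wholly below (Trem2). Over all genes 18.7% did not overlap there. Apoe, also without overlap there, was left out because the METTL3 libraries chose it. The log2 differences from chow were 0.44 in HFD+STZ (SE 0.19, edgeR adjusted p = 0.379) and 0.72 in METTL3 (SE 0.19, edgeR adjusted p = 0.0568). The latter passed in DESeq2 (adjusted p = 0.0105) and without chow 3 and HFD+STZ 1 (edgeR adjusted p = 0.0416), and over all alternatives its adjusted p reached 0.200. METTL3 lay 0.28 (SE 0.17) above HFD+STZ, or 0.13 without METTL3 4.

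Abcg1 (ENSMUSG00000024030, chr17:31057698-31115777, plus strand), which passes cholesterol to high-density lipoprotein, lay at 5.44, 6.83 and 1.35 CPM in chow, 9.27, 3.47, 5.71 and 4.69 CPM in HFD+STZ, and 3.68, 2.76, 5.21 and 5.82 CPM in METTL3. All groups overlapped, and chow 3 was the lowest library. The edgeR adjusted p was 0.781 for HFD+STZ and 0.965 for METTL3 against chow, with log2 differences of 0.35 (SE 0.49) and -0.06. Without chow 3 the first was -0.07.

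Nr1h3 (ENSMUSG00000002108, chr2:91184061-91202834, minus strand), the LXR alpha gene, lay at 14.3, 19.2 and 22.7 CPM in chow, 14.6, 21.5, 19.2 and 17.2 CPM in HFD+STZ, and 15.7, 11.03, 10.1 and 17.8 CPM in METTL3. METTL3 2 and 3 lay below every other library, and METTL3 1 and 4 lay within both other groups. The log2 difference from chow was -0.05 in HFD+STZ (edgeR adjusted p = 0.949) and -0.46 in METTL3 (edgeR adjusted p = 0.293).

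Of 11 tested partners and targets of LXR, Arl4c was the 1 gene called. It fell from 11.4 to 5.19 mean CPM in METTL3 against chow, by 1.13 on the log2 scale (SE 0.22, edgeR adjusted p = 0.0279), a call lost without chow 2 or any 1 of the 4 METTL3 libraries (highest adjusted p = 0.0845). Mylip, which marks the LDL receptor for degradation, lay at means of 16.8 CPM in chow, 51.7 CPM in HFD+STZ and 48.5 CPM in METTL3. Its adjusted p was 0.166 for HFD+STZ and 0.0650 for METTL3 against chow by edgeR, and DESeq2 gave 0.00746 for the first. Smpdl3a, a lipid phosphodiesterase, lay at 60.4 mean CPM in chow and 89.3 in METTL3 (log2 difference 0.56, SE 0.14, edgeR adjusted p = 0.0538). In METTL3 against HFD+STZ the LXR beta gene Nr1h2 lay lower, at 35.5 against 47.3 mean CPM (edgeR adjusted p = 0.534). The median of the 11 was 0.21 in HFD+STZ and 0.32 in METTL3 against chow, and -0.25 in METTL3 against HFD+STZ.

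Receptors that take up lipoproteins gave 1 call in each direction among 11 tested genes in METTL3 against chow. Cd36, the scavenger receptor and fatty acid transporter that cardiomyocytes and endothelium also carry, rose from 1345 to 4237 mean CPM, by 1.66 on the log2 scale (SE 0.23, edgeR adjusted p = 0.00751). That call was kept without any single library (highest adjusted p = 0.0370) and lost with the sample code range as a covariate (adjusted p = 0.0818). In HFD+STZ against chow Cd36 stood at 3065 mean CPM, 1.19 higher on the log2 scale (SE 0.23, edgeR adjusted p = 0.0545). Stab1, a scavenger receptor of macrophages and sinusoidal endothelium, fell from 89.6 to 50.3 mean CPM in METTL3 against chow, by 0.83 (SE 0.18, edgeR adjusted p = 0.0333). The Stab1 call was lost without chow 2, HFD+STZ 4, METTL3 1, METTL3 3 or METTL3 4 (highest 0.0965). The other LDL receptor family genes did not pass: Vldlr lay at 219 mean CPM in chow and 370 in METTL3 (edgeR adjusted p = 0.217).

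Ctsd (ENSMUSG00000007891, chr7:142375911-142388038, minus strand), the main aspartic protease of lysosomes, lay at 483, 583 and 1318 CPM in chow, 576, 663, 712 and 679 CPM in HFD+STZ, and 654, 566, 620 and 556 CPM in METTL3. All groups overlapped, with chow 3 far above every other library. The log2 difference from chow was -0.27 in HFD+STZ (edgeR adjusted p = 0.699) and -0.41 in METTL3 (edgeR adjusted p = 0.435), and 0.31 and 0.16 without chow 3.

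Among 26 lysosome genes Ctsz fell and Laptm4a rose in METTL3 against chow. Ctsz, a cysteine protease, fell from 53.3 to 18.2 mean CPM, by 1.55 on the log2 scale (SE 0.34, edgeR adjusted p = 0.0333), and without chow 3 by 0.85. Laptm4a, a lysosomal membrane protein, rose from 351 to 556 mean CPM, by 0.66 (SE 0.16, edgeR adjusted p = 0.0422). The Ctsz call was lost without chow 2, HFD+STZ 2, HFD+STZ 4 or any 1 METTL3 library, up to an adjusted p of 0.0949. That of Laptm4a was kept only without chow 3 or HFD+STZ 1 (highest 0.109). Of 12 genes that handle cholesterol esters and lysosomal lipid, Npc2, which hands lysosomal cholesterol on, fell from 64.4 to 37.3 mean CPM (by 0.79, SE 0.19, edgeR adjusted p = 0.0486). The Npc2 call was kept without chow 1 and lost without each of the other 10 libraries (highest 0.124).

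Lgals3 (ENSMUSG00000050335, chr14:47367751-47386160, plus strand) encodes galectin-3, a lectin of activated macrophages and damaged lysosomes. It lay at 4.25, 5.75 and 35.0 CPM in chow, 5.19, 6.38, 7.67 and 4.57 CPM in HFD+STZ, and 7.05, 5.77, 5.06 and 4.93 CPM in METTL3. A single library, chow 3, lay far above the other 10, which spanned 4.25 to 7.67 CPM. The log2 difference from chow was -1.33 in HFD+STZ (SE 0.56, edgeR adjusted p = 0.377) and -1.39 in METTL3 (SE 0.56, edgeR adjusted p = 0.173), and 0.25 and 0.18 without chow 3.

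Spp1 (ENSMUSG00000029304, chr5:104435118-104441050, plus strand), the gene of the secreted matrix protein osteopontin, lay at 1.81, 1.56 and 13.8 CPM in chow, 12.4, 0.608, 4.25 and 1.89 CPM in HFD+STZ, and 5.95, 2.51, 10.9 and 3.40 CPM in METTL3. Each group held 1 library above 10 CPM and the groups overlapped throughout. The log2 difference from chow was -0.25 in HFD+STZ (edgeR adjusted p = 0.926) and -0.00 in METTL3 (edgeR adjusted p = 1.000), and 1.52 and 1.74 without chow 3. None of 11 partners of osteopontin and galectins passed in any comparison. The integrin gene Itgav lay higher in METTL3 than in HFD+STZ, at 39.1 against 28.8 mean CPM (edgeR adjusted p = 0.471).

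Cd9 (ENSMUSG00000030342, chr6:125460266-125494791, minus strand) encodes a tetraspanin of many cell membranes. It lay at 34.1, 46.9 and 63.6 CPM in chow, 61.8, 36.2, 33.04 and 33.5 CPM in HFD+STZ, and 40.4, 43.9, 50.6 and 51.8 CPM in METTL3. The METTL3 libraries lay above HFD+STZ 2, 3 and 4 and below HFD+STZ 1. The log2 difference from chow was -0.23 in HFD+STZ (edgeR adjusted p = 0.719) and -0.05 in METTL3 (edgeR adjusted p = 0.940). Of 10 tetraspanins and partners Cd37, a tetraspanin of leukocytes, fell from 3.41 to 0.738 mean CPM in METTL3 against chow, by 2.20 (SE 0.43, edgeR adjusted p = 0.0279). The Cd37 call was lost without chow 2 or any 1 of the 4 METTL3 libraries (highest 0.0855).

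Of 23 tested genes of the lipid-associated macrophage programme, a list that holds several genes named above, 3 fell in METTL3 against chow and 0 rose: Tyrobp, Ctsz and Ctss. Ctss, the cathepsin of antigen-presenting cells, fell from 25.2 to 8.28 mean CPM, by 1.60 (SE 0.31, edgeR adjusted p = 0.0250), a call lost without chow 2 or any 1 of the 4 METTL3 libraries (highest 0.0811). The median of the list was -0.46 there, -0.47 in HFD+STZ against chow and -0.08 in METTL3 against HFD+STZ. In the last comparison Mmp12, the macrophage elastase, lay at 3.05 mean CPM against 0.735 (log2 difference 2.03, SE 0.76, edgeR adjusted p = 0.464). Of the 182 tested genes of all lists together, edgeR called 0 in HFD+STZ against chow and 0 in METTL3 against HFD+STZ. At an unadjusted edgeR p of 0.05 there were 39 and 31, beside 12.1% and 9.06% of all genes. The lists were chosen with earlier results of these data known, so nothing is read from these shares. DESeq2 called 7 in HFD+STZ against chow (among them Acta2, Cbr2, Cd36, H2-Aa, Mylip and Timd4). It called 6 in METTL3 against HFD+STZ (C1qa, H2-Aa, H2-Eb1, Laptm4a, Pln and S100a9).

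General macrophage markers lay lower where Apoe did. The 12 pan-macrophage markers summed to 267 to 514 CPM in chow, 175 to 331 CPM in HFD+STZ and 107 to 182 CPM in METTL3, and none of the 12 was at 0 in a whole group. Against HFD+STZ all 12 lay below 0 in METTL3 with a median of -0.50 and 0 called. Against chow 11 of 12 lay below 0 with a median of -1.25, and 4 fell: C1qa (by 2.57, SE 0.39, edgeR adjusted p = 0.0101), C1qc (by 1.67, SE 0.31, adjusted p = 0.0221), Csf1r (by 1.33, SE 0.27, adjusted p = 0.0284) and Fcgr1 (by 2.52, SE 0.61, adjusted p = 0.0472). C1qa kept its call without any single library (highest adjusted p = 0.0456), with a log2 difference of -1.86 without chow 3, and lost it on these 2 groups alone (adjusted p = 0.0516) and with the sample code range (adjusted p = 0.0925). That of C1qc was lost without chow 2, METTL3 1, METTL3 3 or METTL3 4 (highest 0.0778). The Csf1r call was lost without chow 2 or any 1 of the 4 METTL3 libraries (highest 0.0849). Fcgr1 kept its call only without chow 1 (highest 0.113).

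Of 9 tested markers of monocyte-derived macrophages 4 were called lower in METTL3 against chow, all of the MHC class II pathway. The median of the 9 was -1.64, and 8 lay below 0. Ccr2 hardly differed, at 3.03 mean CPM in METTL3 and 3.10 in chow (log2 difference -0.03, edgeR adjusted p = 0.985). Chil3 lay higher, at 0.873 mean CPM in METTL3 against 0.409 in chow (edgeR adjusted p = 0.666). H2-Aa fell from 30.5 to 6.96 mean CPM (by 2.13, SE 0.28) and H2-Eb1 from 26.9 to 5.03 mean CPM (by 2.41, SE 0.33), both with an edgeR adjusted p of 0.00726. Both calls were kept without any single library (highest adjusted p = 0.0370) and lost with the sample code range as a covariate (adjusted p = 0.0597 each). Cd74 fell by 2.08 (edgeR adjusted p = 0.0329) and H2-Ab1 by 2.45 (edgeR adjusted p = 0.0333). Both calls were lost without chow 2, HFD+STZ 4, METTL3 1 or METTL3 3, and that of Cd74 also without METTL3 4, with adjusted p up to 0.101 and 0.0885. Of 9 markers of resident cardiac macrophages, 8 lay below 0 in METTL3 against chow, with a median of -0.58 over the list, and Cbr2 and Gas6 were called lower. Lyve1 went the other way, from 20.1 to 31.8 mean CPM (log2 difference 0.66, SE 0.25, edgeR adjusted p = 0.144). Cbr2 went from 46.9 to 12.9 mean CPM, a log2 difference of -1.86 (edgeR adjusted p = 0.0312) and of -1.04 without chow 3, and Gas6 fell by 0.69 (edgeR adjusted p = 0.0365). The Cbr2 call was lost without chow 2 or any 1 of the 4 METTL3 libraries (highest 0.0941), and that of Gas6 was kept only without chow 3 or HFD+STZ 1 (highest 0.106).

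Each member was then set against these markers in the same library, as log2 CPM minus the mean log2 CPM of the 12 pan-macrophage markers. On that scale Apoe was 4.60, 4.66 and 4.58 in chow, 4.62, 4.90, 4.80 and 5.18 in HFD+STZ, and 4.03, 4.47, 4.42 and 4.45 in METTL3. METTL3 lay below both other groups without overlap, by 0.53 from HFD+STZ and 0.27 from chow, less than the 1.14 and 1.65 of the unadjusted values. Against the single marker C1qc the ratio of CPM, 5.97 to 10.5 over all libraries, overlapped between every pair of groups. Gpnmb was -1.34, -2.74 and -2.90 in chow, -1.77, -2.77, -2.19 and -1.36 in HFD+STZ, and 0.63, 0.10, -0.23 and -0.86 in METTL3. All 4 METTL3 libraries lay above all others, METTL3 4 included, by means of 1.93 from HFD+STZ and 2.24 from chow. METTL3 4, at 2.87 CPM of Gpnmb, was inside both other ranges before the markers were subtracted. It had the lowest mean of the markers, 2.44 log2 CPM. Apoe and Gpnmb chose the set, so nothing is read from the separation of either on this scale.

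**Figure D3:**
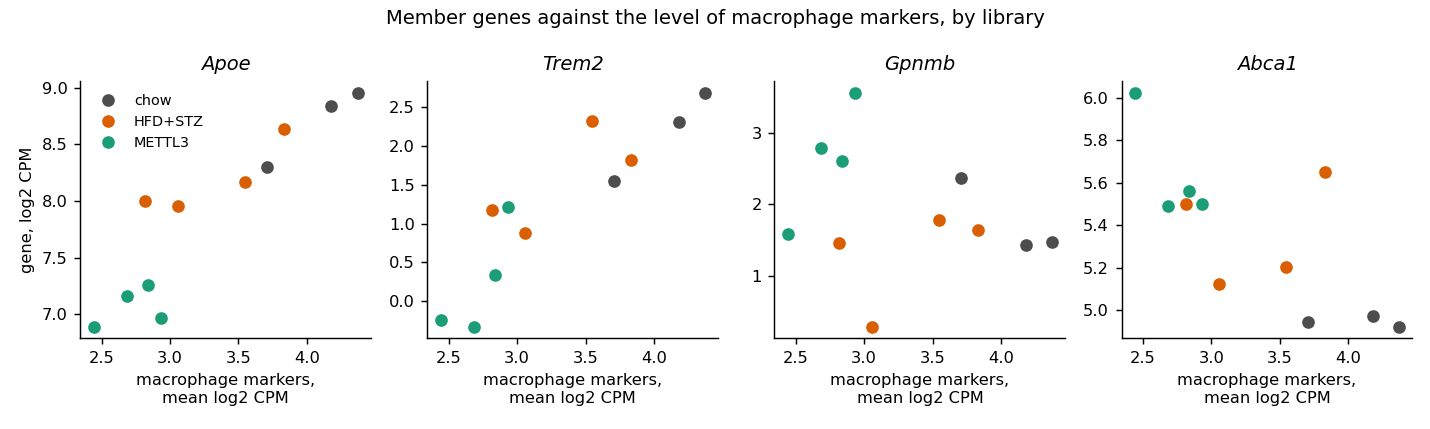
Log2 CPM of Apoe, Trem2, Gpnmb and Abca1 (y axes) against the mean log2 CPM of 12 pan-macrophage markers (x axes) in the 11 libraries, coloured by group. Apoe and Trem2 are high where the markers are high, and Gpnmb and Abca1 are not. The x values are the same in every panel, with the METTL3 points at the low end of the markers.

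Trem2 lay 0.57 below chow in METTL3 on this scale (exact permutation p = 0.143) and 0.14 above it in HFD+STZ (exact permutation p = 0.657), with overlap in both. Abca1 lay 1.20 above chow in HFD+STZ and 2.06 in METTL3, without overlap in either (two-sided exact permutation p = 0.0286 each, the smallest that 4 libraries against 3 allow). Abcg1, Ctsd and Cd9 also reached 0.0286 by the exact permutation test in METTL3 against chow, with differences of 1.53, 1.10 and 1.36. That of Abcg1 rested in large part on chow 3 and was 0.69 without it. Over the 16 tests of the 8 members, 5 had an exact permutation p of 0.0286 and 0 passed after Benjamini-Hochberg adjustment, the smallest adjusted value of the exact permutation tests being 0.0914. Abca1, Ctsd and Cd9 are transcribed in many cell types of the heart, so a level above the markers here says only that the gene did not go down with them.

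**Figure D4:**
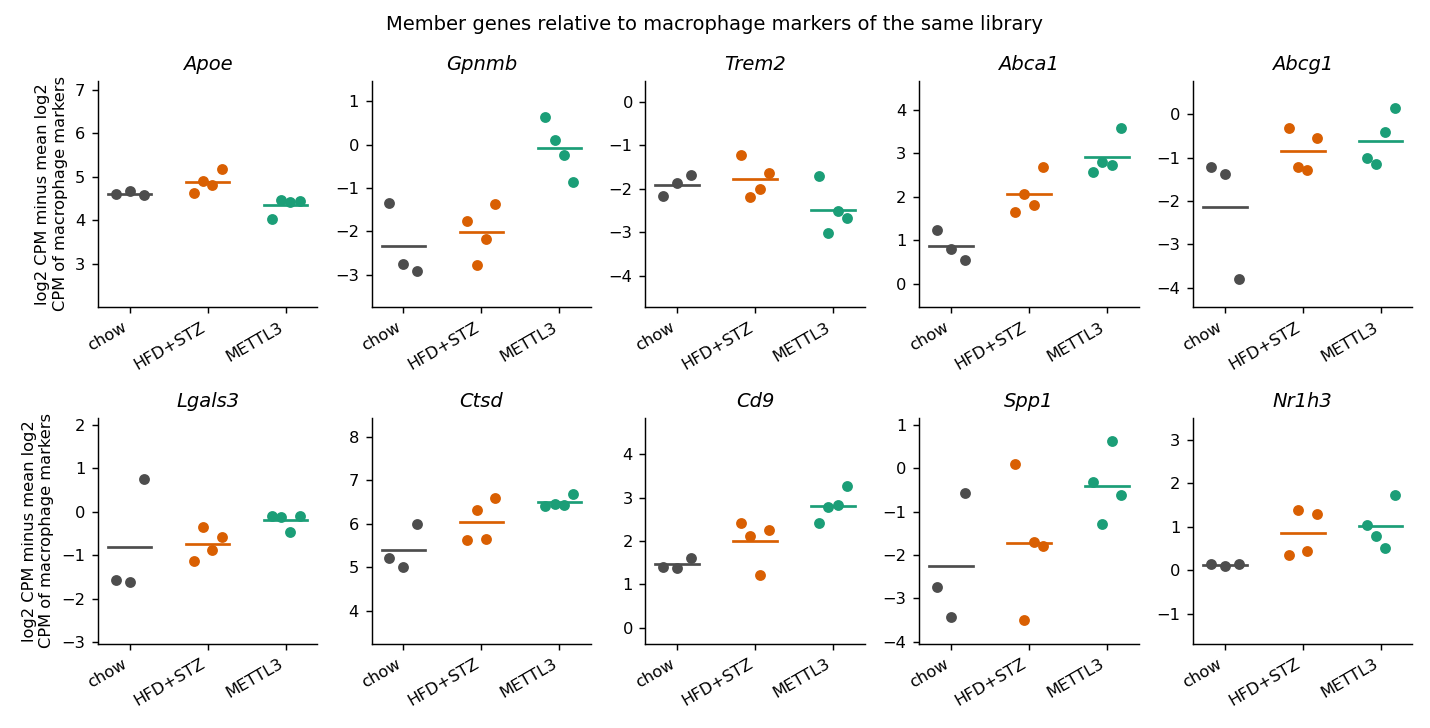
Log2 CPM of each gene minus the mean log2 CPM of 12 pan-macrophage markers in the same library; points are libraries, lines are group means, and every panel spans the same range. The METTL3 libraries of Gpnmb (-0.86 to 0.63) lie above all others, and those of Apoe (4.03 to 4.47) lie below all others by a small margin. Both genes chose the set, so nothing is read from these separations.

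Levels can be compared between genes only per length. The length used was the gene length deposited with the counts, which may differ from that of the main transcript. As mean CPM per kilobase of that gene length the order in chow was Ctsd (338), Apoe (198), Cd9 (23.6), Lgals3 (8.07), Nr1h3 (7.45), Spp1 (3.47), Abca1 (2.96), Abcg1 (1.12), Trem2 (0.940) and Gpnmb (0.525). The places of Lgals3 and Spp1 rested on chow 3: without it Lgals3 lay at 2.69, after Nr1h3 (6.66) and Abca1 (2.98), and Spp1 at 1.02, after Abcg1 (1.51). In METTL3 it was Ctsd (255), Apoe (63.0), Cd9 (22.8), Nr1h3 (5.43), Abca1 (4.87), Spp1 (3.45), Lgals3 (3.07), Abcg1 (1.07), Gpnmb (1.05) and Trem2 (0.238). HFD+STZ ran from Ctsd (280) and Apoe (139) through Cd9 (20.1), Nr1h3 (7.21), Abca1 (4.02), Lgals3 (3.20), Spp1 (2.90) and Abcg1 (1.42) to Trem2 (0.612) and Gpnmb (0.384). By mean, Trem2 stood before Gpnmb in chow and HFD+STZ and after it in METTL3, for which Gpnmb was chosen. In chow 1 Gpnmb was above Trem2 per length, with a ratio of 1.36. Trem2 (SD 0.356 in chow, 0.287 in HFD+STZ) and Gpnmb (SD 0.214 and 0.150) did not differ beyond their spread in those groups. Abcg1 and Gpnmb in METTL3, with SDs of 0.345 and 0.560 per kilobase, did not differ beyond their spread, nor did Spp1 and Lgals3 in METTL3 or HFD+STZ, nor Lgals3 and Nr1h3 in chow.

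Over the 11 libraries, the 5 genes whose log2 CPM tracked Apoe most closely among 12155 genes of at least 1 mean CPM were C1qc (Pearson r = 0.96), Pld4 (0.94), C1qa (0.94), Ctss (0.93) and Galk2 (0.92). C1qc and C1qa are chains of complement C1q made by macrophages, and Pld4 is a nuclease of myeloid lysosomes. Their means followed the same order of groups, for example 11.5, 6.85 and 3.13 CPM for Pld4 in chow, HFD+STZ and METTL3. For Gpnmb they were Mef2c (0.93), Xpo4 (0.90), Prkd3 (0.88), Rev3l (0.88) and Kpna4 (0.87), none of which belongs to the lists of macrophage genes used here. These are descriptions: all points share library scaling and the same 3 groups. Among the members Apoe and Trem2 had r = 0.86 and Apoe and Abca1 r = -0.71, and Lgals3 and Ctsd had r = 0.95, or 0.65 without chow 3. With group means removed, r was 0.47 for Apoe and Trem2 and 0.16 for Apoe and Abca1. It was 0.96 for Lgals3 and Ctsd, chow 3 included.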

How the data were processed

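RNA of whole hearts (ribosomal RNA depleted, per the labels' protocols) was measured in 11 libraries. Per the labels and the submitters' processing notes, which name FastQC, Salmon and mm10 without versions, the authors deposited gene counts in whole numbers, unnormalized; the sources used here do not say how Salmon estimates became whole counts. Library totals, which set the precision, stand in the report. Genes were tested with edgeR 4.0.16 (R 4.3.3): filterByExpr with a minimum count of 10, TMM scaling, quasi-likelihood tests over all 3 groups and Benjamini-Hochberg adjustment over 14862 genes at 0.05, checked on simulated counts. CPM are TMM-scaled, log2 CPM carry a prior count of 2, and single values were compared with exact permutation tests (scipy 1.17.1). DESeq2 1.42.0 was an alternative.

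Members and gene lists were chosen with earlier results of these data known. Named were all members; in each list and comparison the genes past 0.05, up to 4, or else up to 3 of smallest p, from which a few are printed; and the 5 genes most like Apoe and Gpnmb. Other lists read beside them (neutrophil, fibroblast, pericyte, endothelial, adipocyte and cardiomyocyte markers) are given among the other observations. The lymphocyte markers are not reported here. Other settings tried were DESeq2 size factors, no filter, only the groups compared, a replicate block, the sample code range, offsets for length and GC, each library left out, and, chosen after seeing the data, mitochondrial genes left out. Gene positions are as deposited, and 9 of the 10 members have the same positions in GENCODE M21. Upstream sequences are from RefSeq on GRCm38.p6.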

Additional observations from a re-analysis of the deposited data

Results flagged for a closer look

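In each group of 4 libraries the highest and lowest values of every member were compared with the spread of the rest, 20 groups in all, of which chance would pick about 1 in 20. Abca1 in METTL3 stood out through METTL3 4, at 65.0 CPM against 44.8 to 47.1 CPM in the other 3 libraries. Cd9 in HFD+STZ stood out through HFD+STZ 1, at 61.8 CPM against 33.04 to 36.2 CPM in the other 3. METTL3 4 and HFD+STZ 1 are the treated libraries whose codes lie in the range from 78 to 98.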

How the results depend on the processing

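Apoe, Trem2, Abca1 and Gpnmb kept the sign of their difference in all 3 comparisons under all 20 alternatives. The calls rest on 3 or 4 libraries a group, and for Trem2 on 8 counts in the lowest library. Counts of called genes for HFD+STZ against chow, METTL3 against HFD+STZ and METTL3 against chow were 25, 0 and 475. They were 307, 139 and 1509 by DESeq2, and without chow 3 and HFD+STZ 1 they were 493, 403 and 1258. No filter gave 190 and 747 for the comparisons with chow, offsets for length and GC content gave 59 and 180, only the groups compared gave 0 and 54, and the sample code range gave 1 and 1. Leaving out single libraries gave 1 (without chow 2) to 215 (without HFD+STZ 1) for HFD+STZ against chow and 34 (without chow 2) to 750 (without chow 3) for METTL3 against chow. The cause was not tested. Members called in METTL3 against chow were 2 by DESeq2 (Trem2 and Abca1), 1 with no filter (Trem2), 1 without chow 3 and HFD+STZ 1 (Abca1), and 0 to 1 without single libraries.

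Replicate numbers did not pair the libraries: same-numbered libraries correlated at -0.23 to 0.16 in their deviations from group means. A fit with the replicate number as a block called 2 genes in HFD+STZ against chow, 0 in METTL3 against HFD+STZ and 5 in METTL3 against chow, and put Spp1 in METTL3 at 0.45 above chow. It lost 21 of the 22 calls of list genes in METTL3 against chow, Cd36 (adjusted p = 0.0815), H2-Eb1 (0.0606) and C1qa (0.0514) among them.

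The other 6 members changed sign under some settings, uncalled in each. Without chow 3 and HFD+STZ 1, log2 differences of HFD+STZ from chow were -0.41 for Abcg1, 0.31 for Lgals3, 0.36 for Ctsd, 0.40 for Spp1 and 0.21 for Nr1h3, and those of METTL3 from chow were 0.18 for Lgals3, 0.16 for Ctsd, 0.19 for Cd9 and 1.74 for Spp1. With the sample code range they were 0.14 for Cd9, 0.33 for Spp1 and 0.031 for Nr1h3 in HFD+STZ, and 0.53 for Abcg1, 0.37 for Cd9 and 1.09 for Spp1 in METTL3. Offsets for length and GC content gave Abcg1 0.13 and Spp1 0.070 in METTL3, and no filter gave Spp1 0.028. Single libraries left out gave, for HFD+STZ against chow, -0.075 to 0.79 for Abcg1, -1.75 to 0.25 for Lgals3, -0.51 to 0.31 for Ctsd, -0.49 to 0.031 for Cd9, -1.35 to 1.52 for Spp1 and -0.20 to 0.12 for Nr1h3. For METTL3 against chow they gave -0.50 to 0.36 for Abcg1, -1.82 to 0.18 for Lgals3, -0.66 to 0.16 for Ctsd, -0.24 to 0.19 for Cd9 and -0.53 to 1.74 for Spp1. Relative to the macrophage markers, HFD+STZ against chow ran from -0.33 to 0.86 for Lgals3, -0.085 to 1.36 for Spp1 and -0.039 to 0.28 for Trem2.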

Other observations

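Of the lists read for other cell types, the 9 neutrophil markers summed to 5.65 to 7.20 CPM in chow, 3.47 to 47.0 CPM in HFD+STZ and 3.02 to 10.2 CPM in METTL3, and 0 of 6 tested were called by edgeR in any comparison (DESeq2 called S100a9 in METTL3 against HFD+STZ). S100a9, a granule protein of neutrophils, had means of 2.02, 8.67 and 1.51 CPM in that order.

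None of the 8 fibroblast, 8 pericyte and smooth muscle, 8 endothelial, 8 cardiomyocyte and 3 tested adipocyte markers passed in any comparison by edgeR. DESeq2 called Acta2 in HFD+STZ against chow, Pln in METTL3 against HFD+STZ, and Actc1, Pecam1, Pln, Rgs5 and Ttn in METTL3 against chow. The medians of these lists in METTL3 against HFD+STZ were 0.08 for fibroblasts, 0.11 for pericytes and smooth muscle, -0.03 for endothelium, -0.01 for cardiomyocytes and -0.81 for adipocytes, beside -0.50 for the pan-macrophage markers. The complement gene C1qb, a neighbour of C1qa and C1qc, lay at 57.7, 40.5 and 28.3 mean CPM in chow, HFD+STZ and METTL3.

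The apolipoprotein genes beside Apoe on chromosome 7 were near 0: Apoc1, Apoc2 and Apoc4 had means of at most 0.338 CPM in every group and did not pass the filter.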
